A study of Mus musculus with 12 samples.

Results

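Retinoid storage and signalling genes were followed through 9 members named by gene symbol: Rbp4, Lrat, Dhrs3, Aldh1a1, Aldh1a2, Cyp26a1, Rara, Rarb and Rxra. They were read from 14 of the 33763 transcript rows of a liver RNA-seq table that holds 23991 genes. For each gene the row with the highest mean over the 12 libraries was used. The livers came from male C57/Bl6J mice in 3 groups of 4 libraries. The chow group ate chow for 16 weeks from 4 weeks of age. The HFD group was fed a high-fat diet that held 0.2% cholesterol by weight, over the same time. The HFD+ASBTi group ate the same high-fat diet with 0.006% SC-435, also for 16 weeks from 4 weeks of age. SC-435 is an inhibitor of ASBT, the ileal transporter that takes bile acids back up. The labels carry no allele or transgene and do not state whether 1 library stands for 1 mouse, so the p-values rest on a spread between libraries that may be technical.

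The liver is the main store of vitamin A. Retinol reaches the blood bound to the carrier RBP4 made by hepatocytes, and the surplus is esterified by LRAT and kept in droplets of hepatic stellate cells. Retinol is oxidised to retinal and then, irreversibly, to retinoic acid, which CYP26 enzymes break down. Retinoic acid acts through heterodimers of a retinoic acid receptor and a retinoid X receptor, and Cyp26a1 and Rarb are textbook genes that retinoic acid switches on. Retinoid X receptors are also the partners of the bile acid receptor FXR, of PPARs and of LXRs.

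Values are RPKM, reads scaled by gene length and by library total, and the length behind them is the genomic span, introns included. RPM below is the same without the length. Libraries held an estimated 8967550 to 13244195 reads, with overlapping ranges in the 3 groups. All 10 hepatocyte markers examined were above the filter on low values, and their summed level was 3416 to 5169 RPKM per library. A gene was tested where it reached 0.5 RPKM in at least 4 of 12 libraries, which kept 6325 genes and 7 of the 9 members. A change was called at a limma adjusted p under 0.05. Rarb and Aldh1a2 were under the filter. One chow library, headed C7, is known by its group alone.

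Retinoic acid response elements were looked for in the 250 bases before each gene start in RefSeq promoters of the GRCm38.p6 build, where all 9 members matched, with 17 start sites. The element searched was DR5, a direct repeat of the retinoid receptor half-site with 5 bases between, on either strand. It was found in 29 of 32851 promoters, or 0.0883%, and in 2 of the 17 member promoters. These are shown because they belong to the member that changed most between diets and to a receptor that lay near the lower end of the levels. The DR1 and DR2 spacings, with 1 and 2 bases between, were found in 0.164% and 0.174% of all promoters and in 0 of the 17. Below, the element is in capitals and the rest in lower case, read 5′ to 3′ on the strand of the gene. The Cyp26a1 stretch is chr19:37697558-37697807 on the plus strand, and its element lies 32 to 16 bases before the start in the opposite orientation. The Rarb stretch is chr14:16575477-16575726 on the minus strand, and its element lies 53 to 37 bases before the start. A match is a description of letters and does not show that a receptor was bound in these livers.
Cyp26a1: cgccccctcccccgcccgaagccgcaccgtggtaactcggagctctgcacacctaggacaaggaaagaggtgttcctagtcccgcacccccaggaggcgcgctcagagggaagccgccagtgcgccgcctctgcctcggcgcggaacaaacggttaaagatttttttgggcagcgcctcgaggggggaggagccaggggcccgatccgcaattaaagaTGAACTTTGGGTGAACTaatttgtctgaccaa
Rarb: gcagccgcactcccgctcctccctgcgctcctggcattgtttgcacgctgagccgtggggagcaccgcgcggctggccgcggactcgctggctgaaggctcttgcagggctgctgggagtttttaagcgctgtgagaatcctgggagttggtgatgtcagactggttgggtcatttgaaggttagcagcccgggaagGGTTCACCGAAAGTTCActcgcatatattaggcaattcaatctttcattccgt

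Cyp26a1, the retinoic acid hydroxylase whose promoter is shown above, was the member that separated the diets. Its level was 2.22, 2.29, 1.65 and 2.08 RPKM in the chow libraries 1, 2, C7 and 4. It was 0.281, 0.208, 0.200 and 0.466 RPKM in HFD libraries 1 to 4. In HFD+ASBTi libraries 1 to 4 it was 0.125, 0.0714, 1.32 and 0.204 RPKM. Every chow library lay above every library of both high-fat diet groups, and the third HFD+ASBTi library stood alone between the others and chow. These levels rest on few reads, an estimated 70 to 91 in each of the chow libraries, 8 to 23 in those of HFD and 3 to 44 in those of HFD+ASBTi. The 4 chow libraries and the third HFD+ASBTi library were the ones at or above 0.5 RPKM, so the gene passed the filter mainly through the group where it was high.

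Cyp26a1 was 7.14-fold lower in HFD than in chow (0.289 ± 0.123 against 2.06 ± 0.285 RPKM, mean ± SD, n = 4 each). The log2 change was -1.70 with an SE of 0.30 and a limma adjusted p of 0.00624. It was 1 of the 7 tested members called in that comparison, where 12.1% of all tested genes were called. With HFD+ASBTi against chow it was 4.80-fold lower (0.429 ± 0.594 RPKM), with a log2 change of -1.63, an SE of 0.30 and a limma adjusted p of 0.0138. Here 2 of the 7 tested members were called, against 7.05% of all tested genes. Without the third HFD+ASBTi library the gene was 15.4-fold lower than in chow. Without HFD+ASBTi 1, 2 or 4 it was 3.89-fold, 3.76-fold and 4.09-fold lower. Leaving out each of the 12 libraries in turn kept both calls. With no filter on low values, where passing does not depend on chow, the limma adjusted p was 0.0177 for HFD and 0.0361 for HFD+ASBTi against chow.

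Between the high-fat diet groups, 0 of the 7 members were called by limma, against 0.0949% of all tested genes. At an unadjusted p under 0.05 the count was 1 of the 7, Dhrs3, against 9.26% of all tested genes, so that count is near the background. Cyp26a1 was 1.49-fold higher in HFD+ASBTi than in HFD by group means, with a log2 change of 0.07 and a limma adjusted p of 0.965. That direction rests on the third library of the inhibitor group. Without it the gene was 2.16-fold lower than in HFD, with a log2 change of -0.31 and a limma adjusted p of 0.416.

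**Figure D1:**
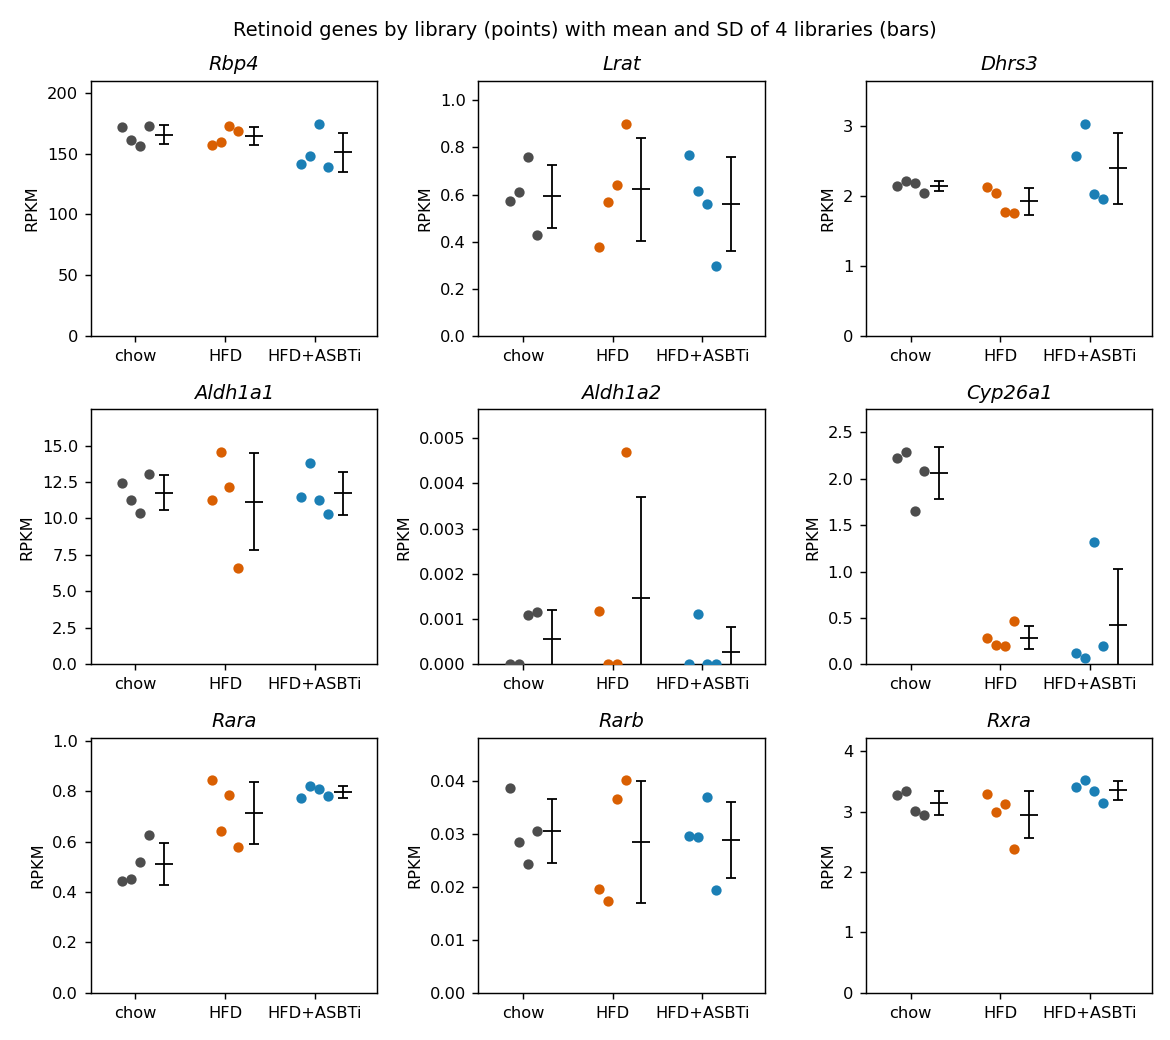
RPKM of the 9 retinoid genes on a linear axis from 0, 1 point per library, by diet group, with the mean and SD of 4 libraries drawn beside the points (an SD that reaches below 0 stops at the axis). For Cyp26a1 the 4 chow libraries sit between 1.65 and 2.29 RPKM, above all 8 others, and the third HFD+ASBTi library sits at 1.32.

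The other CYP26 genes were in the list of retinoic acid binding and breakdown genes and were under the filter, and they were singled out after their values had been seen. Cyp26b1, also a retinoic acid hydroxylase, was 0.333, 0.222, 0.244 and 0.384 RPKM in chow libraries 1, 2, C7 and 4. It was 0.0425, 0.104, 0.0111 and 0.0202 RPKM in HFD libraries 1 to 4. In HFD+ASBTi libraries 1 to 4 it was 0.0708, 0.111, 0.249 and 0.00485 RPKM. The HFD libraries did not overlap chow, and the third HFD+ASBTi library, the one that stood apart in Cyp26a1, was again the highest of its group and lay inside the chow range. Its reads came to an estimated 52 to 91 in each of the chow libraries, 3 to 23 in those of HFD and 1 to 49 in those of HFD+ASBTi. By group means Cyp26b1 was 6.65-fold lower in HFD than in chow, with a limma adjusted p of 0.0276 when no filter was applied and 0.0141 on RPM. Without HFD 2, its highest HFD library, the fold was 12.01, and without HFD 1, 3 or 4 it was 6.56, 5.32 and 5.63. It was 2.71-fold lower in HFD+ASBTi than in chow, with limma adjusted p of 0.123 and 0.101 in those fits, and 4.75-fold lower without the third HFD+ASBTi library. Cyp26c1, of the same enzyme family, had at most 7 estimated reads in any library, and the third HFD+ASBTi library, with 5, had the most outside chow.

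The receptor Rara, which binds retinoic acid, went the other way. Its level was 0.445, 0.453, 0.517 and 0.626 RPKM in chow libraries 1, 2, C7 and 4. It was 0.842, 0.643, 0.785 and 0.579 RPKM in HFD libraries 1 to 4. In HFD+ASBTi libraries 1 to 4 it was 0.774, 0.822, 0.809 and 0.781 RPKM. All HFD+ASBTi libraries lay above all chow libraries and within a narrow range, while the lowest HFD library lay inside the chow range. These levels rest on an estimated 70 to 98 reads in each of the chow libraries, 96 to 137 in those of HFD and 104 to 134 in those of HFD+ASBTi. At so few reads the narrow range is not taken as a trait of the group. Rara was 1.56-fold higher in HFD+ASBTi than in chow (0.796 ± 0.0230 against 0.510 ± 0.0836 RPKM, n = 4 each), with a log2 change of 0.36, an SE of 0.08 and a limma adjusted p of 0.0229. In HFD it was 1.40-fold higher than in chow (0.712 ± 0.122 RPKM), with a log2 change of 0.26, an SE of 0.08 and a limma adjusted p of 0.0537, which missed the threshold. Between the high-fat diet groups the log2 change was 0.10, with a limma adjusted p of 0.723.

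The Rara calls lay close to the threshold. The change of HFD+ASBTi against chow missed it with each library centred on its median (log2 change 0.31, limma adjusted p 0.0540). It also missed it without chow 1, 2 or C7 (limma adjusted p 0.0644, 0.0717 and 0.0522) and without HFD+ASBTi 1 or 2 (0.0503 and 0.0572). The change of HFD against chow passed without chow 4 (limma adjusted p 0.0361) or without HFD 4 (0.0280), on RPM (0.0479) and with the rows of each gene summed (0.0378). The gene has 4 rows that share most of their reads, and the one used has the shortest span. The summed rows thus count most reads more than 1 time and are no separate evidence. In the 4 rows the fold of HFD+ASBTi over chow was 1.55 to 1.58 and that of HFD over chow 1.37 to 1.40.

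Rarb and Rxra are the other receptors among the members. Rarb, the receptor gene whose promoter holds the second element shown, was 0.0306 RPKM in chow, 0.0285 in HFD and 0.0289 in HFD+ASBTi by group means. Its reads were 61, 44, 40 and 48 in chow libraries 1, 2, C7 and 4, 30, 26, 64 and 77 in HFD libraries 1 to 4, and 46, 48, 48 and 26 in HFD+ASBTi libraries 1 to 4. The 3 groups overlapped, and on RPM the log2 change of HFD against chow was -0.15, with a limma adjusted p of 0.757. The Rarb libraries of the high-fat diet groups overlapped those of chow, and those of Cyp26a1 did not. DR5 was found in both promoters, and its part in either level was not tested. Rxra, the main retinoid X receptor of hepatocytes, was 3.14 ± 0.193 RPKM in chow, 2.95 ± 0.392 in HFD and 3.35 ± 0.157 in HFD+ASBTi (n = 4 each). Its lowest library was HFD 4 at 2.39 RPKM, and its other 11 libraries lay between 2.95 and 3.51. Its log2 changes were -0.09 for HFD against chow, 0.17 for HFD+ASBTi against HFD and 0.08 for HFD+ASBTi against chow, with limma adjusted p of 0.542, 0.593 and 0.614.

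**Figure D2:**
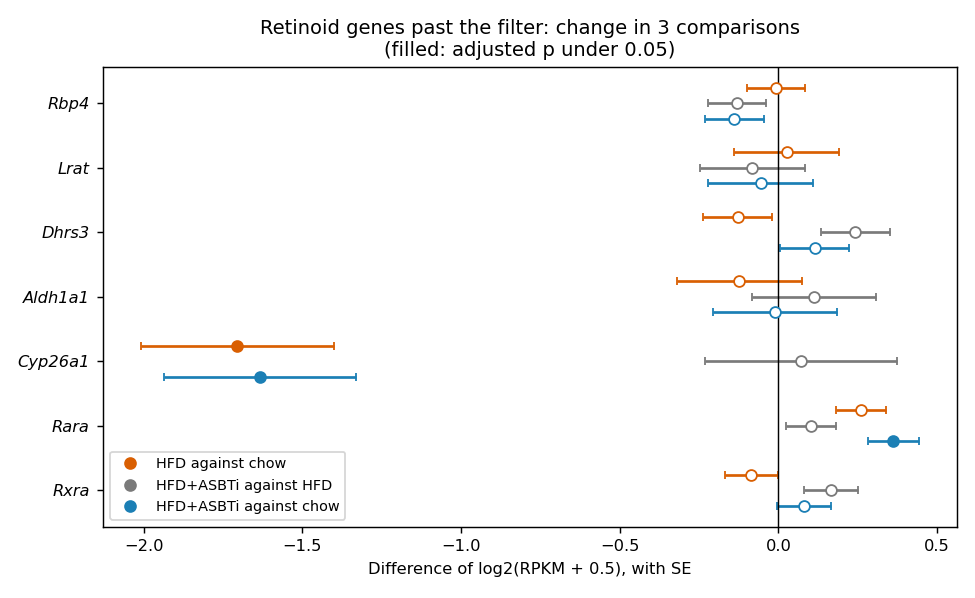
Difference of log2(RPKM + 0.5) with its SE for the 7 retinoid genes above the filter in the 3 comparisons, filled where the limma adjusted p was under 0.05. Cyp26a1 lies at -1.70 and -1.63 against chow, Rara at 0.36 for HFD+ASBTi against chow, and every other value is between -0.14 and 0.26.

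The storage and carrier genes kept overlapping levels in the 3 groups. Rbp4, the plasma carrier of retinol, was 172, 162, 156 and 173 RPKM in chow libraries 1, 2, C7 and 4. It was 158, 160, 173 and 169 RPKM in HFD libraries 1 to 4, and 142, 148, 175 and 139 RPKM in HFD+ASBTi libraries 1 to 4. In the inhibitor group 3 libraries lay below every chow and HFD library, and the third lay above them all. The log2 change of Rbp4 was -0.01 for HFD against chow, with a limma adjusted p of 0.970, and -0.14 for HFD+ASBTi against chow, with a limma adjusted p of 0.404.

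Lrat, the enzyme that makes retinyl esters for storage, was 0.573, 0.609, 0.758 and 0.430 RPKM in chow libraries 1, 2, C7 and 4. It was 0.376, 0.570, 0.641 and 0.901 RPKM in HFD libraries 1 to 4, and 0.770, 0.616, 0.558 and 0.296 RPKM in HFD+ASBTi libraries 1 to 4. The spread within a group, 0.135 to 0.217 RPKM (SD, n = 4), was larger than the differences between group means of 0.592, 0.622 and 0.560 RPKM. The log2 changes were 0.03 for HFD against chow, -0.08 for HFD+ASBTi against HFD and -0.06 for HFD+ASBTi against chow, with limma adjusted p of 0.938, 0.915 and 0.874. In bulk liver, fewer cells of a type and less RNA per cell cannot be told apart.

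Lrat marks hepatic stellate cells in the liver, and its level moved with the other markers of those cells from library to library. The library with the lowest Lrat in each group, chow 4, HFD 1 and HFD+ASBTi 4, was also the lowest of its group in the summed level of 17 other stellate markers, at 7.19, 6.92 and 6.09 RPKM. Over the 12 libraries Pearson's r was 0.785 (permutation p 0.00251, adjusted over 3 relations 0.00376) and Spearman's rho was 0.874 (permutation p 3.3e-04, adjusted 9.9e-04). Without the libraries farthest from the median, HFD+ASBTi 4 and HFD 1, r was 0.591. For deviations from the group means r was 0.806. One marker, Ecm1, made up 44% to 65% of the sum. With Ecm1 left out, r over the other 16 markers was 0.876 (permutation p 2.4e-04, adjusted 7.2e-04) and rho was 0.797 (permutation p 0.00304, adjusted 0.00456). Without the libraries then farthest from the median, HFD 4 and HFD 1, r was 0.781. Rarb, looked at in the same way, had an r of 0.339 (permutation p and adjusted p 0.277) and a rho of 0.224 (permutation p and adjusted p 0.487) with the 17 markers, and without HFD+ASBTi 4 and HFD 1 r was -0.08. These relations were looked for after the values had been seen, and all levels in a library share its depth. Among the 18 stellate markers 6 were tested, Lrat included, and 0 were called in any of the 3 comparisons by limma.

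**Figure D3:**
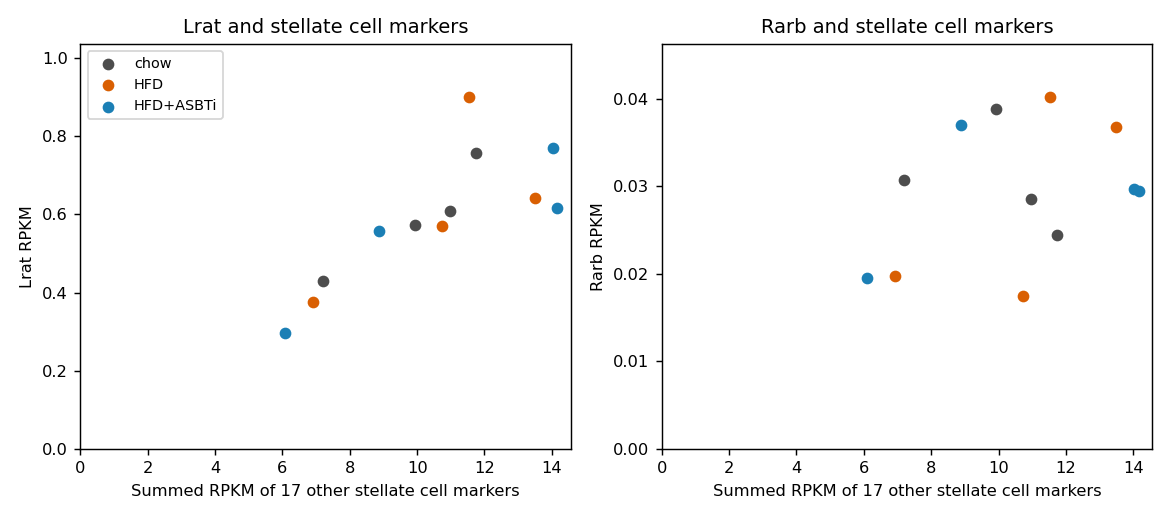
RPKM of Lrat (left) and Rarb (right) against the summed RPKM of 17 other hepatic stellate cell markers, 1 point per library, coloured by diet group, with both axes from 0. Lrat is higher in libraries with more marker signal (r = 0.785), with libraries of each group spread along the trend, and Rarb shows a looser scatter (r = 0.339).

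The enzymes that make and unmake retinal gave no call. Dhrs3, which reduces retinal back to retinol, was 2.14, 2.21, 2.19 and 2.04 RPKM in chow libraries 1, 2, C7 and 4. It was 2.13, 2.05, 1.77 and 1.75 RPKM in HFD libraries 1 to 4, and 2.57, 3.03, 2.02 and 1.95 RPKM in HFD+ASBTi libraries 1 to 4. The inhibitor group thus held 2 libraries above every chow library and 2 below every chow library. Its log2 changes were -0.13, 0.24 and 0.11 for HFD against chow, HFD+ASBTi against HFD and HFD+ASBTi against chow, with limma adjusted p of 0.470, 0.534 and 0.578. Aldh1a1, a retinal dehydrogenase that makes retinoic acid, was 11.8 ± 1.21 RPKM in chow, 11.1 ± 3.32 in HFD and 11.7 ± 1.49 in HFD+ASBTi (n = 4 each). HFD 4 was its lowest library at 6.63 RPKM, and the other 11 lay between 10.3 and 14.6. Its log2 changes were -0.12, 0.11 and -0.01 in the same order, with limma adjusted p of 0.719, 0.898 and 0.984. Aldh1a2, the retinal dehydrogenase best known from the embryo, was near 0, with 9 estimated reads in all 12 libraries together, 5 of them in HFD 4, and no fold is given.

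Levels of different genes were compared as RPM per spliced kilobase, since RPKM here is divided by the genomic span. Whether reads from introns were counted is not given in the sources used here. By mean over the 12 libraries the order was Rbp4 at 1404, Aldh1a1 at 233, Rxra at 55.0, Dhrs3 at 32.4, Rara at 3.02, Cyp26a1 at 1.93, Rarb at 1.37, Lrat at 1.26 and Aldh1a2 at 0.0273 RPM per spliced kilobase. The lowest library of each of the first 4 lay above the highest library of the next gene, except that Rxra at its lowest, 41.7, lay under Dhrs3 at its highest, 45.6. The place of Cyp26a1 depended on the diet. In chow it was at 4.30 ± 0.595, with every library (3.45 to 4.78) above every Rara library (1.997 to 2.81). In HFD it was at 0.603 ± 0.258, with every library (0.418 to 0.972) below every Rara library (2.60 to 3.78). Rarb and Lrat overlapped in each group, and in HFD the highest Cyp26a1 library lay inside the range of both.

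**Figure D4:**
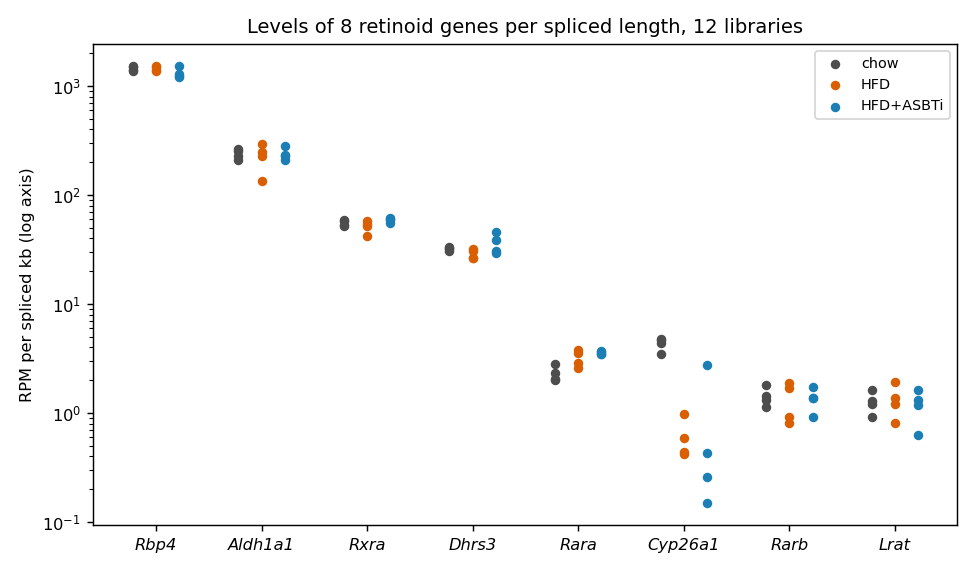
RPM per spliced kilobase on a log axis for 8 retinoid genes, 1 point per library, coloured by diet group and ordered by the mean of group means (Aldh1a2, near 0, is left out). Rbp4 is near 1404 and Lrat near 1.26, and Cyp26a1 shifts from 4.30 in chow to 0.603 in HFD.

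The genes whose pattern was nearest to a called member were found by the root mean square difference of log2 values centred on their mean, over the 12 libraries and all tested genes. Nearest to Cyp26a1 were Mirlet7c-2, a microRNA gene, at a difference of 0.319, Eif4ebp3, a translation repressor of the 4E-BP family, at 0.345, and Ces2a, a carboxylesterase, at 0.391. Near to Rara were Nit2, an omega-amidase, at 0.0669 and Gm15417 at 0.0751.

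Other genes of the retinoid pathway were taken from lists by role. Beside the counts of each list, 12.1% of all tested genes were called in HFD against chow and 7.05% in HFD+ASBTi against chow. In HFD against chow, 1 of 7 or 1 of 13 is near that share. Of 7 tested genes of retinol transport and uptake, 1 rose in HFD against chow, and 2 rose in HFD+ASBTi against chow. They were Cd36, a fatty acid and lipoprotein scavenger receptor, 4.19-fold and 3.18-fold higher than in chow (limma adjusted p 0.00325 and 0.0202), and Lrp1, a chylomicron remnant receptor, 1.34-fold higher in HFD+ASBTi (limma adjusted p 0.0494). Stra6, the RBP4 receptor of other tissues, was at or near 0 RPKM, with 0.005 in chow C7 and 0 elsewhere. Ttr, the plasma partner of RBP4, was 140 to 178 RPKM over the 12 libraries and was not called.

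Of 10 tested genes that form or hydrolyse retinyl esters, Lrat among them, 3 rose and 1 fell in HFD against chow, and 2 rose and 1 fell in HFD+ASBTi against chow. Ces2a, also among the genes nearest to Cyp26a1, fell 2.45-fold in HFD and 2.79-fold in HFD+ASBTi (limma adjusted p 3.92e-04 and 2.42e-04). Lipe, the hormone-sensitive lipase, rose 1.81-fold and 1.59-fold (limma adjusted p 0.0111 and 0.0449). Lipa, the lysosomal acid lipase, rose 1.56-fold and 1.44-fold (limma adjusted p 0.00779 and 0.0280). Ces1f, a carboxylesterase, rose 1.39-fold in HFD (limma adjusted p 0.0463). The median log2 change over the 10 was 0.35 and 0.10 in the 2 comparisons with chow, against 0.02 and 0.03 over all tested genes.

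Of 13 tested retinol and retinal oxidoreductases, Dhrs3 among them, 1 rose in HFD against chow and 0 were called in HFD+ASBTi against chow by limma. Adh1, an alcohol dehydrogenase that can oxidise retinol, rose 1.76-fold in HFD (56.6 ± 2.42 against 32.2 ± 0.591 RPKM, n = 4 each, limma adjusted p 0.00400). Of 5 tested genes of retinoic acid synthesis, Aldh1a1 among them, 0 were called in any comparison. Both carotenoid cleavage genes gave 1 tested gene, Bco2, which was not called. Of the 7 genes of retinoic acid binding and breakdown 2 were tested, and Cyp26a1 was the one called. The other was Fabp5, a fatty acid and retinoic acid binding protein, at 0.297 to 0.559 RPKM in chow, 0.602 to 3.57 in HFD and 0.595 to 5.46 in HFD+ASBTi, where the highest library was again the third.

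Of the 3 tested retinoid receptors, Rxrb, a retinoid X receptor, fell 1.30-fold in HFD against chow (limma adjusted p 0.0279), beside Rara described above. Of 6 tested partner receptors, Ppara rose 1.64-fold in HFD against chow (limma adjusted p 0.00805) and the rest, Nr1h4 (FXR) included, were not called. The 9 receptor cofactors were all under the filter. That filter acts on RPKM by genomic span, so being under it does not show a lack of reads. Of 6 tested genes listed as retinoic acid targets, 2 rose and Cyp26a1 fell in HFD against chow, and 1 rose and Cyp26a1 fell in HFD+ASBTi against chow. Those that rose were Rarres1, 2.13-fold and 1.94-fold higher (limma adjusted p 0.0157 and 0.0417), and Rarres2, the gene of chemerin, 1.53-fold higher in HFD (limma adjusted p 0.0347). These 6 are the tested part of 15 listed target genes, and whether they share a cause was not tested. Cyp26b1, under the filter and singled out after its values had been seen, was 6.65-fold lower in HFD than in chow by group means. Rarb, also under the filter, was 0.0285 RPKM in HFD and 0.0306 in chow. In HFD+ASBTi against HFD, 0 genes of any of these lists were called by limma, against 0.0949% of all tested genes.

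**Figure D5:**
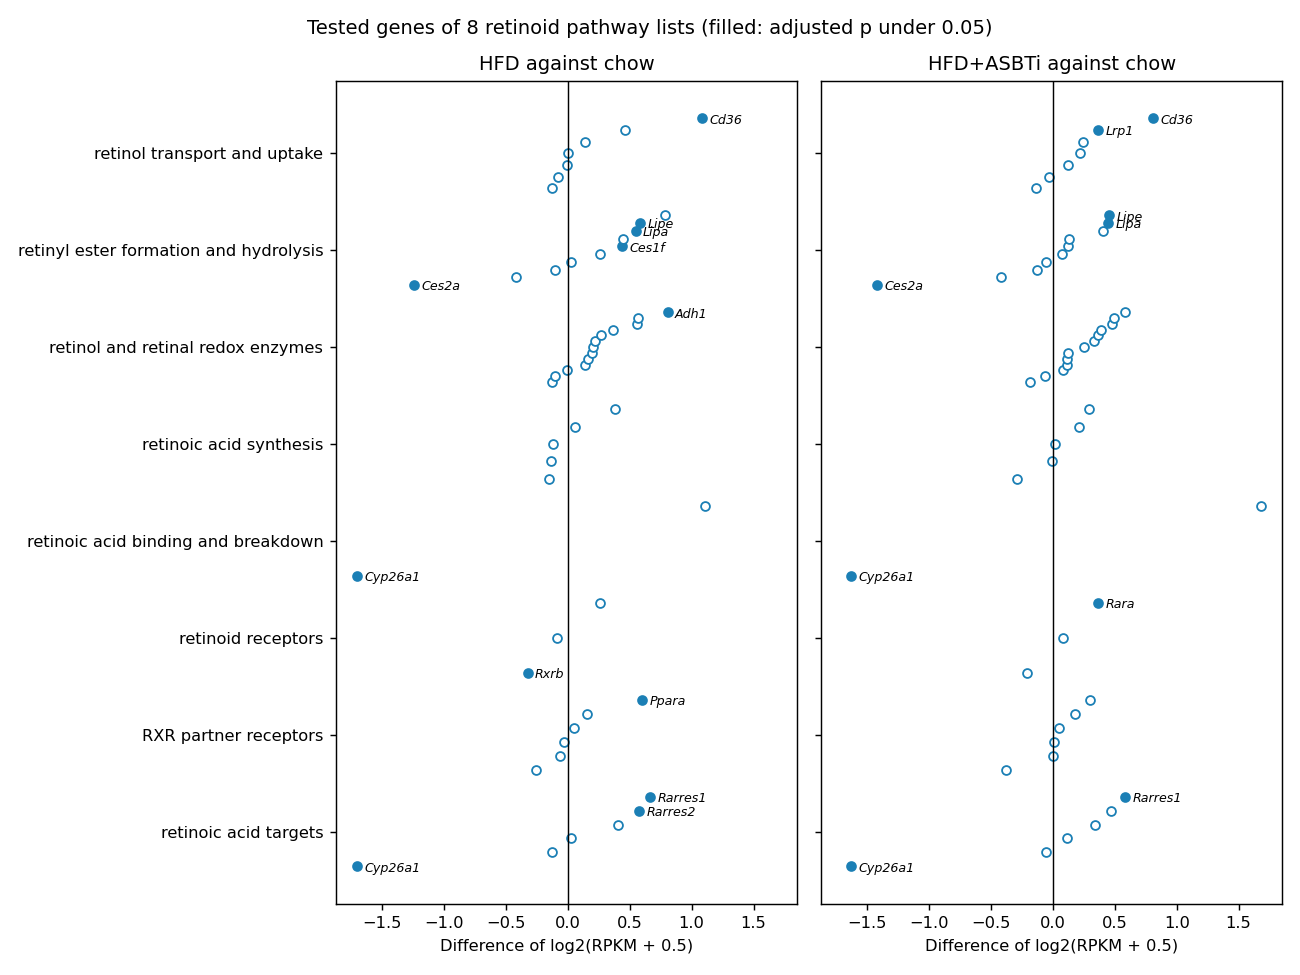
Difference of log2(RPKM + 0.5) for the tested genes of 8 retinoid pathway lists, HFD against chow on the left and HFD+ASBTi against chow on the right, 1 point per gene, filled and named where the limma adjusted p was under 0.05. Cyp26a1 and Ces2a lie lowest among the named genes in both panels, and Cd36 lies highest.

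Markers of other cells moved with the diets. Beside the counts below, 12.1% and 7.05% of all tested genes were called in HFD and HFD+ASBTi against chow. The summed level of 6 red blood cell markers was 28.8 to 139 RPKM in chow, 168 to 301 in HFD and 147 to 287 in HFD+ASBTi, and 4 of the 5 tested rose in both comparisons with chow. The summed level of 8 fat cell markers was 1.54 to 3.69 RPKM in chow, 3.45 to 14.2 in HFD and 2.90 to 7.69 in HFD+ASBTi. Of the 4 tested, 3 rose in HFD (Cfd, Cidec and Lipe) and 1 in HFD+ASBTi (Lipe) against chow. Adipoq, Plin1, Lep and Retn of that list were at or near 0 in every library, with a highest value of 0.161 RPKM. Of 7 tested macrophage markers 1, Cd68, rose in both comparisons with chow. The single tested endothelial and cholangiocyte markers were not called. Of the 10 hepatocyte markers, 8 were not called in HFD against chow and 8 were not called in HFD+ASBTi against chow. The summed level of the 10 was 3658 ± 187 RPKM in chow, 3888 ± 854 in HFD and 3660 ± 183 in HFD+ASBTi (n = 4 each). Apoa1 (1395 to 3056 RPKM per library) and Alb (582 to 1311) weigh most in that sum, and both were highest in HFD 4. In HFD against chow the median log2 change over the 10 was -0.229, against 0.0205 over all tested genes. Among the markers not called there, Tat was 0.431-fold and Ass1 0.460-fold of chow by group means (limma adjusted p 0.0548 and 0.0591). Serpina1a was 0.808-fold and Ttr 0.915-fold of chow. Apoa1 was 1.23-fold and Apob 1.06-fold of chow in HFD, and Alb and Cyp2e1 lay close to chow. Of those called, Hnf4a, a hepatocyte transcription factor, fell 1.69-fold in HFD and 1.44-fold in HFD+ASBTi (limma adjusted p 0.00126 and 0.0155). Cps1, a urea cycle enzyme, fell 1.87-fold in HFD (limma adjusted p 0.0401), and Tat, a tyrosine-degrading enzyme, fell 2.55-fold in HFD+ASBTi (limma adjusted p 0.0456). The part of these markers in the Cyp26a1 and Rara results was not tested. In HFD 1 and HFD+ASBTi 4 the fat cell markers summed to 3.45 and 2.90 RPKM. Both sums lay below chow C7, at 3.69 RPKM, and above the other chow libraries. Cyp26a1 was 0.281 RPKM in HFD 1 and 0.204 RPKM in HFD+ASBTi 4, below every chow library. In the third HFD+ASBTi library the fat cell markers summed to 3.41 RPKM, also between chow C7 and the other chow libraries, and Cyp26a1 was 1.32 RPKM.

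The direction of calls over all genes depended on centring, which bears on small changes such as that of Rara. As deposited, 484 genes rose and 282 fell in HFD against chow, and 300 rose and 146 fell in HFD+ASBTi against chow. With libraries centred on their medians the counts were 420 and 389, and 185 and 211. The directions of Cyp26a1 and Rara against chow were the same under each scaling.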

How the data were processed

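The members and gene lists were chosen with earlier results of these data known. The authors deposited RPKM per RefSeq transcript for polyA libraries (Illumina TruSeq RNA kit) of flash-frozen livers. Bowtie 0.12.7 and mm9 are named by the submitters' processing notes. No counter, annotation or strand setting is stated there. Low values were multiples of 1 read, within 0.05 of a read, in 94.8% to 96.8% of cases by genomic span and 4.9% to 7.4% by spliced length, depending on the library. Those steps gave the estimated reads, which cover counting error only. Of 2653 rows without a usable symbol, 2637 were named by accession in a GRCm38 table, but 5 that matched members were not used, since membership follows the deposited symbols. limma 3.58.1 (R 4.3.3) with a mean-variance trend was run on log2(RPKM + 0.5) of 12 libraries in 1 model (9 residual degrees of freedom), two-sided, with Benjamini-Hochberg adjustment over 6325 genes. Log2 changes of low genes are understated by the pseudocount, while folds are ratios of mean RPKM. The fit was tested on simulated data. Permutation p-values used 100000 draws, two-sided. Named genes are all members, up to 4 called genes per list by lowest adjusted p, and the 3 genes nearest to each called member, of which 1 is not reported here. Alternatives changed the pseudocount, filter, scaling, trend, groups fitted, row choice or replicate block, or left out 1 library. Software was Python 3.11.15 with numpy 2.4.6, pandas 2.3.3 and matplotlib 3.10.9.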

Additional observations from a re-analysis of the deposited data

Results flagged for a closer look

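In 27 sets of 4 values, 1 for each member and group, the gap of the highest or lowest library to its neighbour was compared with the range of the set. It passed Dixon's 95% critical value for 4 samples in 2, and chance gives about 1 in 20. The first was Cyp26a1 in HFD+ASBTi, where the third library was at 1.32 RPKM and the gap was 0.893 of the range. That library was also the highest of its group in Rbp4, Cyp26b1, Cyp26c1 and Fabp5. The second was Aldh1a2 in HFD+ASBTi, where the second library was at 0.0011 RPKM, which is 1 estimated read, and the others at 0.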

How the results depend on the processing

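With 24 alternatives in all, 12 of them each leaving out 1 library, the number of members called in HFD+ASBTi against HFD was 0 throughout. In HFD against chow it was 1, but 0 with a filter on a mean of at least 1 RPKM, which drops Cyp26a1, and 2, with Rara added, on RPM or summed rows. Leaving out 1 library gave 1 to 2. In HFD+ASBTi against chow it was 2, but 0 with the same filter and 1 with median centring. It was also 1 with the lowest-mean row of each member (chosen after seeing the data), where the Rara row was under the filter and was not tested. Leaving out 1 library gave 1 to 2.

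Small uncalled changes turned sign. Lrat in HFD against chow was -0.0011 with median centring, and Rbp4 was 0.11 with quantile normalization. Cyp26a1 in HFD+ASBTi against HFD was -0.066 with a pseudocount of 0.1 and -0.032 on RPM. With 1 library left out, the log2 change ran from -0.26 to 0.10 for Aldh1a1, -0.087 to 0.14 for Lrat and -0.035 to 0.014 for Rbp4 in HFD against chow. It ran from -0.11 to 0.25 for Aldh1a1, -0.31 to 0.25 for Cyp26a1 and -0.19 to 0.049 for Lrat in HFD+ASBTi against HFD. It ran from -0.088 to 0.046 for Aldh1a1 and -0.15 to 0.075 for Lrat in HFD+ASBTi against chow.

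Counts over all genes differed by over 1.5 times on RPM (1280 against 766 in HFD against chow, 712 against 446 in HFD+ASBTi against chow). There 13117 genes were tested in place of 6325, and the shares called were 9.76% against 12.1% and 5.43% against 7.05%. Counts also differed between HFD+ASBTi and HFD (0 to 9 against 6). Leaving out 1 library gave 458 to 864 calls in HFD against chow and 142 to 521 in HFD+ASBTi against chow, lowest without chow 2 in both. Replicate numbers of HFD and HFD+ASBTi did not pair the libraries (correlations of 0.0408 to 0.0691, and not every library highest with its own number). With the replicate block, 0 members and 3 genes were called. Depth limits Cyp26a1, Aldh1a2, Rarb, Rara and Lrat, which rest on at most 91, 5, 77, 137 and 136 estimated reads in a library. The causes were not tested.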
